A study of Mus musculus with 14 samples.

Results

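Interferon response genes are 33 mouse genes, chosen by name, that cells switch on when interferon signals. Of the 33, 31 had at least 1 probe set annotated to that gene alone, among 18193 such genes on the array, and 52 of 45101 probe sets were annotated to a member. Ifi44, a cytoplasmic protein of unsettled function, had no listed probe set here. The single probe set of Isg15, the ubiquitin-like protein joined to other proteins during the response, also carries the symbol of a second gene, so neither gene is given a value. The series set mice that lack the imprinting center of the Prader-Willi domain, labelled PWS-IC del, beside wild-type littermates matched for age, all F1 hybrids of FVB and B6. The 4 groups were measured on Affymetrix Mouse Genome 430 2.0 arrays, namely PWS-IC del brain (n = 3), wild-type brain (n = 4), PWS-IC del vastus lateralis, from the quadriceps (n = 3), and wild-type vastus lateralis (n = 4). The labels name whole brain as the tissue and call the samples biological replicas; they state neither an age nor a sex, and they do not say whether a brain and a muscle array with the same number came from 1 mouse. Every PWS-IC del sample carries the deletion and no wild-type sample does.

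Interferons are secreted proteins that warn cells of infection. Type I interferons act through a receptor shared by most cells and through factors that include Stat2 and Irf9, on a promoter element called the ISRE. Interferon gamma, made mainly by T cells and NK cells, acts on an element called GAS and through Irf1. In brain, microglia, astrocytes and endothelium all answer interferon, and in muscle the fibres, resident macrophages and vessels do. A low level of many of these RNAs is normal in tissue without infection.

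Levels are log2(intensity + 16) of the deposited intensities, a scale whose floor is 4 and which understates differences of dim genes. A gene with several probe sets is given by the one with the highest mean, and levels of different genes are not compared. Genotype differences are those of PWS-IC del minus the wild-type mean with the standard error (SE) of limma, and p-values were adjusted by Benjamini-Hochberg over the 13645 genes tested in a tissue, with a threshold of 0.05. Values of single arrays are given in the order of their numbers, arrays 1 to 3 of PWS-IC del and 1 to 4 of wild-type, an order that has no other meaning.

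Median intensity lay between 142.1 and 170.1 in brain arrays and between 88.8 and 96.4 in muscle arrays, and 14 arrays limit the precision of every comparison. Snrpn, a paternally expressed gene that the imprinting center controls, was at 6.48, 5.03 and 5.44 in PWS-IC del brain and at 10.29 to 10.64 in wild-type brain, a difference of -4.87 ± 0.30 (limma, adjusted p = 0.000222). Neuron markers summed to intensities of 80165 to 85785 in wild-type brain and 688 to 2655 in wild-type muscle. Muscle fibre transcripts were uneven among brain arrays. Their summed intensity over 15 genes was 4384 to 8776 in PWS-IC del brain and 4904 to 15460 in wild-type brain, where arrays 1 and 3 were the high ones. Choroid plexus markers summed to 9712 to 17295 in PWS-IC del brain and 4712 to 18135 in wild-type brain, with wild-type arrays 1 and 2 low. In bulk tissue, fewer cells of a type and less RNA per cell cannot be told apart.

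Neither tissue gave an interferon response gene that passed the test between genotypes. In brain 23 of the 31 measured members passed the filter on low values and 0 were called by limma, against 0.066% of all genes tested (9 of 13645), and in muscle 30 members were tested and 0 were called, against 0.117% of all genes (16 of 13645). At an unadjusted p under 0.05 there were 3 members in brain, against 8.2% of all genes, and 2 in muscle, against 11.9% of all genes. The signs leaned to the positive side, on 1 probe set a gene. Stat2 and Xaf1 each had another probe set below 0 in both tissues. In brain 17 of 23 differences were above 0 with a median of 0.14, against 61.9% of all genes and their median of 0.06, and in muscle 25 of 30 were above 0 with a median of 0.13, against 54.1% of all genes and their median of 0.02. These medians hang on single arrays, since the brain median was 0.037 without PWS-IC del array 3 and 0.051 without PWS-IC del array 2, and the muscle median was 0.078 without PWS-IC del array 3 and 0.021, with 16 members above 0, without wild-type array 3. The 8 members left untested in brain for low values were Ifit1, Mx1, Mx2, Bst2, Usp18, Parp14, Ifi27l2a and Tap1, and Mx2 was the 1 left untested in muscle.

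**Figure D1:**
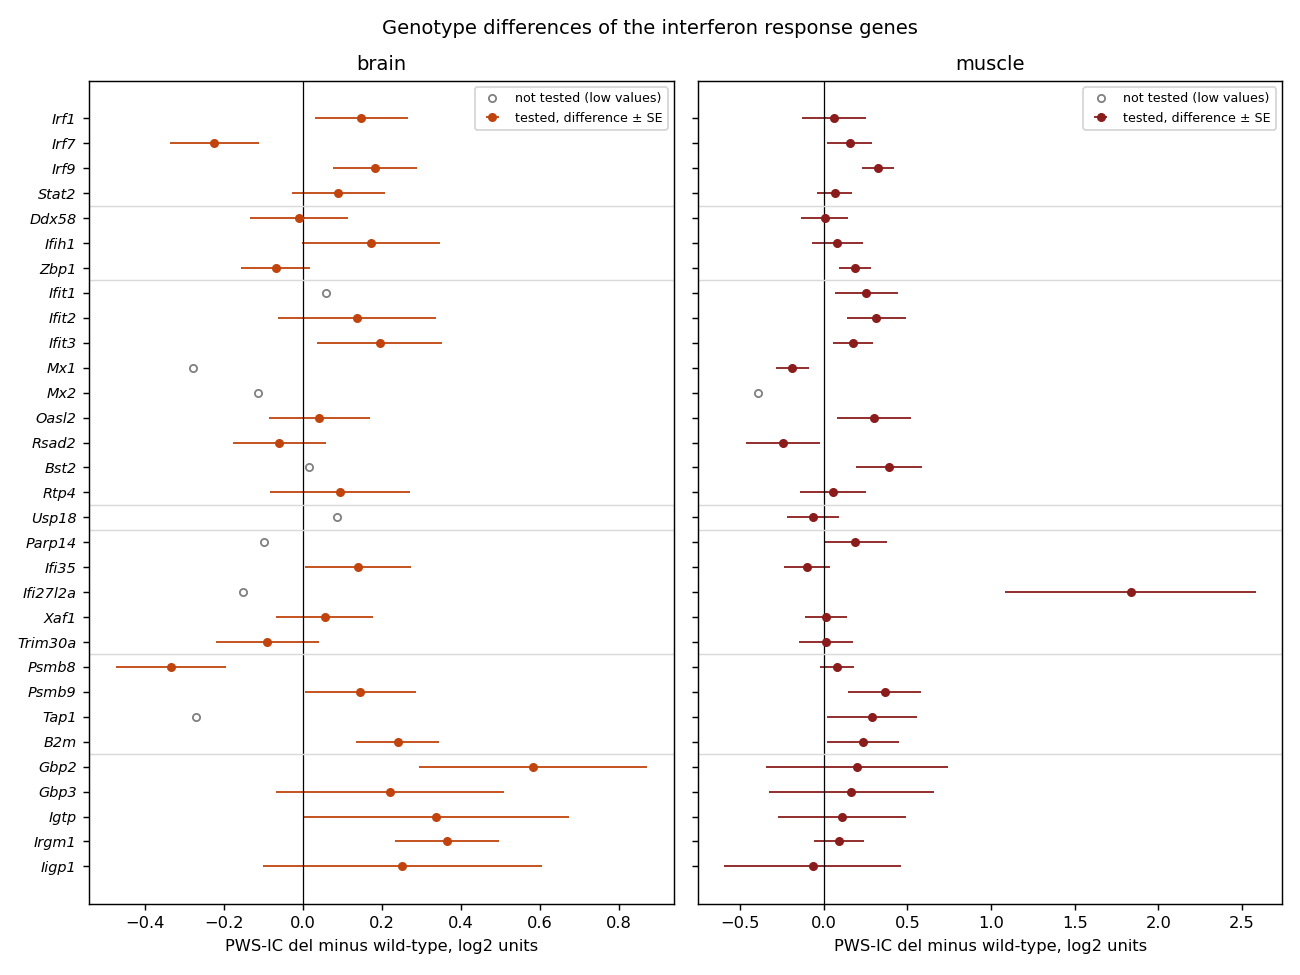
Difference between PWS-IC del and wild-type (log2 units, horizontal axis) for each of the 31 measured interferon response genes, in brain (left) and muscle (right), each panel on its own scale, ordered by role with grey lines between roles. Filled points with bars are tested genes with the SE of limma and open points are genes below the filter, and Ifi27l2a in muscle, at 1.83, lies apart from the other members.

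The interferon-inducible GTPases were above 0 for 5 of 5 genes in brain, with a median of 0.34, and for 4 of 5 in muscle, with a median of 0.11, and they varied among arrays of 1 genotype. Gbp2 and Gbp3 are guanylate-binding proteins that coat the vacuoles of intracellular microbes, and Igtp, Irgm1 and Iigp1 are immunity-related GTPases of the same defence, all strongly induced by interferon gamma. Gbp2 in brain was at 6.99, 7.57 and 8.38 in PWS-IC del arrays and at 7.35, 7.13, 7.0 and 6.77 in wild-type arrays, a difference of 0.58 ± 0.29 (limma, adjusted p = 0.556). The ranges overlapped, with PWS-IC del array 1 below 3 of the 4 wild-type arrays, and without PWS-IC del array 3 the difference was 0.22. Its second probe set gave a brain difference of 0.45.

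Irgm1, which regulates the other GTPases, was at 8.33, 8.63 and 8.85 in PWS-IC del brain and at 8.29, 8.30, 8.21 and 8.15 in wild-type brain, a difference of 0.37 ± 0.13 (limma, adjusted p = 0.556). The genotypes did not overlap, by a margin of hundredths of a log2 unit. It was 1 of 2 tested members with no overlap in brain, where 8.66% of all genes tested showed none. Of the members below the filter there, Mx1 and Tap1 did not overlap either, with PWS-IC del on the lower side and differences of means of -0.28 and -0.27. Igtp, at the membranes of lipid droplets and the endoplasmic reticulum, was at 7.59, 8.05 and 8.98 in PWS-IC del brain and at 8.46, 7.95, 7.57 and 7.5 in wild-type brain, a difference of 0.34 ± 0.34 (limma, adjusted p = 0.686). Iigp1, an effector that ruptures parasite vacuoles, was at 6.92, 7.05 and 8.32 in PWS-IC del brain and at 7.78, 7.22, 6.86 and 6.85 in wild-type brain, a difference of 0.25 ± 0.35 (limma, adjusted p = 0.775). Both overlapped between genotypes, and without PWS-IC del array 3 their differences had the opposite sign, at -0.047 for Igtp and -0.19 for Iigp1.

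The same arrays stood high for the whole group. Array 3 was the highest of the PWS-IC del brains for 5 of 5 GTPases and array 1 the highest of the wild-type brains for 4 of 5, the exception being Irgm1, where array 2 was level with it. Over all genes, by comparison, PWS-IC del brain array 3 was the highest for 22.6% and wild-type brain array 1 for 20.5%. Among the 26 other interferon members these arrays were the highest for 42.3% and 23.1%.

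In muscle the spread among arrays was again wider than the genotype differences. Iigp1 was at 9.01, 10.30 and 10.86 in PWS-IC del muscle and at 11.24, 9.68, 9.29 and 10.29 in wild-type muscle, a difference of -0.07 ± 0.53 (limma, adjusted p = 0.971). Gbp2 was at 8.67, 9.52 and 10.69 in PWS-IC del muscle and at 10.63, 9.34, 8.71 and 9.05 in wild-type muscle, a difference of 0.20 ± 0.54 (limma, adjusted p = 0.915). For both genes the 2 high arrays, 1 of each genotype, stood more than 0.5 above the next array of their group. Array 3 of PWS-IC del and array 1 of wild-type were each the highest muscle array of their group for 5 of 5 GTPases, against 25.2% and 23.7% of all genes. Among the 26 other interferon members they were the highest for 30.8% and 50%, so wild-type array 1 also stood high for many members that are no GTPases. Irf1, the factor that carries the interferon gamma signal, followed them, at 8.76, 9.0 and 9.37 in PWS-IC del muscle and at 9.38, 8.98, 8.62 and 8.96 in wild-type muscle.

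The pattern extended to GTPases outside the 33. Of 17 further genes of these families, 8 had a probe set, and array 3 was the highest PWS-IC del muscle array for 7 of them and array 1 the highest wild-type muscle array for 5. Gbp7 was at 8.17, 8.65 and 9.56 in PWS-IC del muscle and at 9.60, 8.41, 7.98 and 8.32 in wild-type muscle. Irgm2 was at 8.73, 9.14 and 9.39 in PWS-IC del muscle and at 9.09, 8.30, 8.44 and 9.19 in wild-type muscle, where array 4 and not array 1 was the highest. None of the 5 tested in brain or the 6 tested in muscle was called by limma, and none was at an unadjusted p under 0.05 (0 in each tissue). T cell and NK cell markers, the cells known to make interferon gamma, summed to 1273, 1660 and 1707 in PWS-IC del muscle and to 1563, 1926, 1560 and 1804 in wild-type muscle, so that PWS-IC del array 3 was the highest of its group for them and wild-type array 1 was not. In brain, wild-type array 1 was also the highest brain array for muscle fibre markers (15460) and for neutrophil markers (2052, against 989 to 1284 in the other brain arrays), while PWS-IC del array 3 was not, and the part of these cells in the GTPase levels was not tested.

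**Figure D2:**
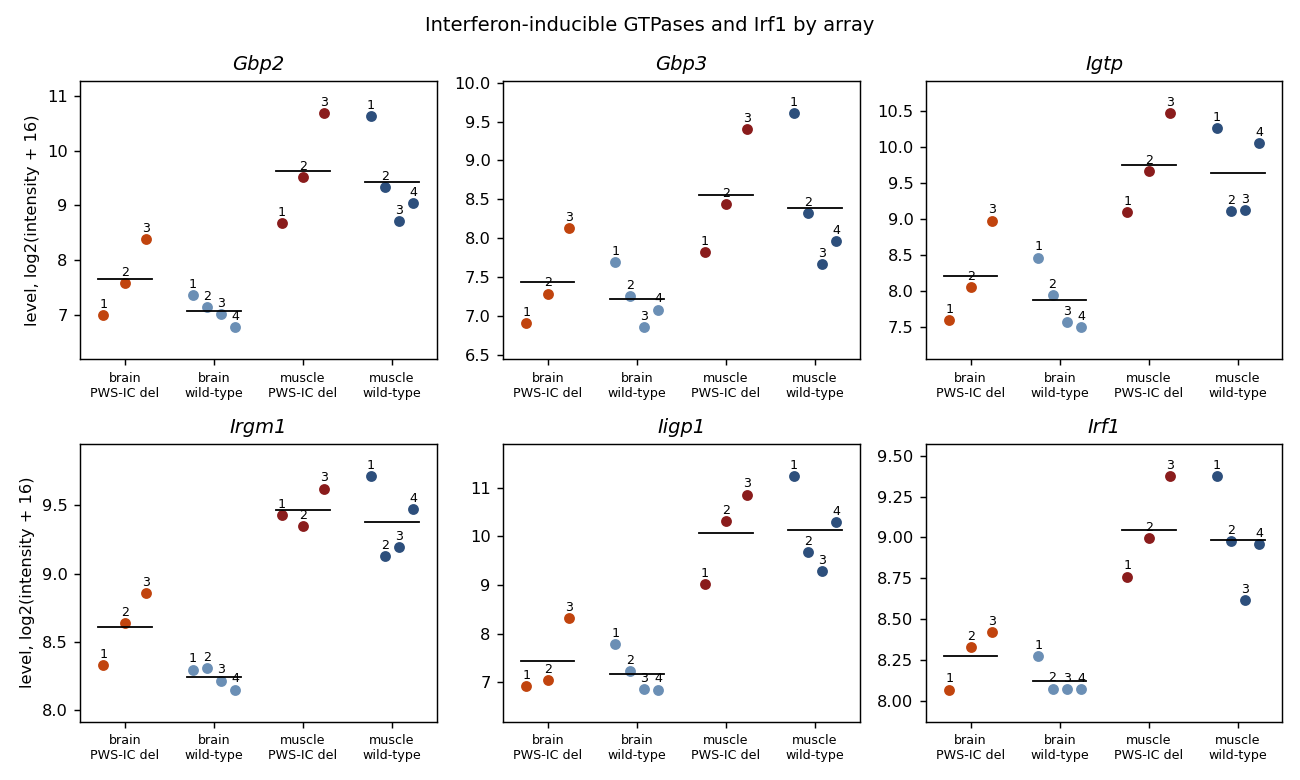
Level of the 5 GTPases and of Irf1 (vertical axis, log2(intensity + 16), own range for each gene) in the 4 groups, 1 point for each array with its number and a black line at the group mean. PWS-IC del array 3 is the highest of its group in every panel and both tissues, and the genotype means lie within the spread of the arrays in muscle.

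The stretches of promoter below show the ISRE letters in members named for their genotype differences. Whether the ISRE has a part in the levels of any array was not tested. The search used the letters GAAA, then any 2 bases, then GAAA, on both strands, with overlapping matches counted, in RefSeq windows of 300 bases, 250 before to 50 after each gene's start (GRCm38.p6). It matched in 15 of 30 windows of 25 members, against 3.44% of all 32851 windows, and 14 of the 25 members had a match. The GAS letters TTCNNNGAA matched in 6 of the 30 member windows (20%), against 8.3% of all windows. Capitals mark the ISRE letters, which in Gbp2 read on the other strand and in Irgm1 and Bst2 are 2 overlapping matches.
Gbp2, chr3:142620579-142620638, plus strand: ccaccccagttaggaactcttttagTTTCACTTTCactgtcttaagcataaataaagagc
Igtp, chr11:58199497-58199555, plus strand: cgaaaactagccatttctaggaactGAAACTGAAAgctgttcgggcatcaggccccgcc
Irgm1, chr11:48871421-48871475, minus strand: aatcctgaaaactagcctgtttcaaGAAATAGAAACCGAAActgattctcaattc
B2m, chr2:122147523-122147582, plus strand: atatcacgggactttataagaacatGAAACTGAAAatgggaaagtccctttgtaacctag
Bst2, chr8:71537562-71537627, minus strand: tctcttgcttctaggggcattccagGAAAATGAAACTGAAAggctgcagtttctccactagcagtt
A match is a run of letters and not a measured site. Gbp3 also had a match in 1 of its 2 windows, with 2 matches, while Iigp1 was among the members without a window in the table used. Of the other members named for a genotype difference, Irf9, Ifit2, Psmb9, Oasl2 and Psmb8 had windows with 0 matches, and Ifi27l2a had no window.

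The transcription factors had medians of 0.12 in brain and 0.11 in muscle, with 0 called. Irf9, the DNA-binding partner of Stat2 at the ISRE, was at 7.43, 7.37 and 7.43 in PWS-IC del muscle and at 7.23, 7.16, 6.88 and 7.08 in wild-type muscle, a difference of 0.32 ± 0.095 (limma, adjusted p = 0.271). All 3 PWS-IC del muscle arrays were above all 4 wild-type ones, the only tested member of which this was so in muscle, where 12.2% of all genes did not overlap. In brain its difference was 0.18 ± 0.11 (limma, adjusted p = 0.569). Stat2 differed by 0.09 in brain and 0.06 in muscle, Irf1 by 0.15 and 0.06, and Irf7, which amplifies type I interferon production, by -0.22 in brain and 0.15 in muscle, with adjusted p of limma at 0.556 or above. The dimmer probe set of Stat2 differed by -0.13 in brain and -0.09 in muscle, so its probe sets disagreed in sign.

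The 3 sensors of foreign nucleic acid had differences within 0.18 of 0. Ddx58, which encodes the RNA sensor RIG-I, differed by -0.01 in brain and 0.01 in muscle. Ifih1, a sensor of long double-stranded RNA, differed by 0.17 in brain and 0.08 in muscle. Zbp1, a sensor of left-handed nucleic acid, differed by -0.07 in brain and 0.18 in muscle.

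The antiviral effectors gave small differences that were mostly above 0 in muscle, 6 of 8 tested with a median of 0.21, and 4 of 5 in brain with a median of 0.09. Bst2, which tethers budding virus to the cell, was at 7.40, 7.37 and 7.35 in PWS-IC del muscle and at 7.38, 7.28, 6.56 and 6.70 in wild-type muscle, a difference of 0.39 ± 0.20 (limma, adjusted p = 0.48). Wild-type array 1 lay inside the PWS-IC del range, array 2 just below it, and arrays 3 and 4 were the low ones. Ifit2, which binds foreign RNA, was at 7.20, 7.06 and 7.26 in PWS-IC del muscle and at 7.32, 6.94, 6.52 and 6.66 in wild-type muscle, a difference of 0.31 ± 0.18 (limma, adjusted p = 0.526). Oasl2, a protein of the oligoadenylate synthetase family, was at 7.14, 6.74 and 6.68 in PWS-IC del muscle and at 6.83, 6.99, 6.22 and 6.17 in wild-type muscle, a difference of 0.30 ± 0.22 (limma, adjusted p = 0.623). In both, wild-type arrays 3 and 4 were again the low ones, and the groups overlapped.

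Other effectors went either way. Rsad2, the antiviral enzyme viperin, differed by -0.25 in muscle and -0.06 in brain, and its 2 dimmer probe sets were also below 0 in both tissues, at -0.29 and -0.33 in muscle. Mx1, of the dynamin-like GTPase family, differed by -0.19 in muscle, and Rtp4, a chaperone of membrane receptors, by 0.09 in brain and 0.05 in muscle. Ifit1, a binder of foreign RNA, and its relative Ifit3 differed by 0.25 and 0.17 in muscle, and Ifit3 by 0.19 in brain. Usp18, the protease that removes Isg15 from its targets, differed by -0.06 in muscle. Of the further induced genes, Ifi35 differed by 0.14 in brain and -0.10 in muscle, Xaf1, a promoter of cell death, by 0.06 and 0.01, and Parp14, an ADP-ribosyltransferase, by 0.19 in muscle. Dimmer probe sets had the opposite sign for Xaf1, at -0.11 in brain and -0.14 in muscle, and for Parp14 in muscle, at -0.07. Trim30a, a ubiquitin ligase of the TRIM family, differed by 0.01 in muscle on its brighter probe set and by 0.61 on its dimmer one, so its probe sets disagreed.

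Antigen presentation by MHC class I gave differences above 0 for all 4 members in muscle, with a median of 0.26, and 0 called by limma. B2m, the light chain of class I molecules, was at 11.55, 11.75 and 11.58 in PWS-IC del brain and at 11.26, 11.37, 11.39 and 11.53 in wild-type brain, a difference of 0.24 ± 0.11 (limma, adjusted p = 0.556). It was the other tested member with no overlap in brain, by a margin of hundredths of a log2 unit, and its second probe set gave 0.30. Psmb9, a catalytic subunit of the immunoproteasome that cuts peptides for display, was at 7.76, 8.46 and 7.93 in PWS-IC del muscle and at 8.05, 7.87, 7.27 and 7.55 in wild-type muscle, a difference of 0.36 ± 0.22 (limma, adjusted p = 0.547). PWS-IC del array 2 was the high one and wild-type array 3 the low one, and the difference was 0.16 without PWS-IC del array 2 and 0.23 without wild-type array 3. Tap1, the peptide transporter, differed by 0.29 in muscle.

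Psmb8, the partner subunit of Psmb9, depended on the probe set. Its brighter probe set was at 7.94, 7.78 and 7.86 in PWS-IC del brain and at 8.50, 8.14, 8.21 and 7.92 in wild-type brain, a difference of -0.33 ± 0.14 (limma, adjusted p = 0.556). Its other probe set was at 7.25, 7.64 and 7.42 in PWS-IC del brain and at 6.70, 7.32, 6.90 and 7.07 in wild-type brain, a difference of 0.44. In muscle the brighter one differed by 0.08 and the other by 0.67. No direction can be given for Psmb8 from these 2 probe sets.

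Ifi27l2a, a small hydrophobic interferon-induced protein, had the widest genotype difference of any member, and it was above the filter in muscle alone. It was at 12.06, 12.60 and 10.07 in PWS-IC del muscle and at 8.33, 11.12, 10.30 and 9.22 in wild-type muscle, a difference of 1.83 ± 0.75 (limma, adjusted p = 0.392). PWS-IC del arrays 1 and 2 were above all others, and array 3 lay inside the wild-type range. In brain it was below the filter, at 5.74 to 6.21 in PWS-IC del arrays and 5.67 to 6.63 in wild-type arrays. Without PWS-IC del muscle array 3 the difference was 2.59 and without array 2 it was 1.32, and neither was called.

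Fat cell genes and macrophage markers were high in the same muscle arrays. The macrophage and microglia markers summed to 11712, 11345 and 7730 in PWS-IC del muscle and to 8025, 9411, 7231 and 7624 in wild-type muscle. Adiponectin (Adipoq), a hormone of fat cells, was at 12.58, 13.10 and 10.89 in PWS-IC del muscle and at 10.85, 12.78, 11.59 and 11.17 in wild-type muscle. Cidec, a lipid droplet protein, was at 9.85, 10.55 and 7.57 in PWS-IC del muscle and at 7.49, 9.43, 8.57 and 7.77 in wild-type muscle. Of the 9 fat cell markers listed, 7 were measured, 5 of 7 differences were above 0 and 0 were called by limma (0 at an unadjusted p under 0.05), with a summed intensity of 15989 to 41163 in PWS-IC del muscle and 20783 to 36975 in wild-type muscle. Arrays 1 and 2 of PWS-IC del and array 2 of wild-type were the 3 highest for that sum, and none of the 7 was at 0. Ifi27l2b, a close relative of Ifi27l2a, was at 8.66, 9.13 and 7.24 in PWS-IC del muscle and at 5.97, 8.06, 7.43 and 6.43 in wild-type muscle, the same order of arrays within each genotype, and whether the probes of these near copies tell them apart was not tested. The class I heavy chain gene H2-K1 was also high there, at 11.88, 12.28 and 11.30 in PWS-IC del muscle and at 11.40, 12.13, 11.28 and 11.53 in wild-type muscle. The part of fat cells and macrophages in these levels was not tested.

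**Figure D3:**
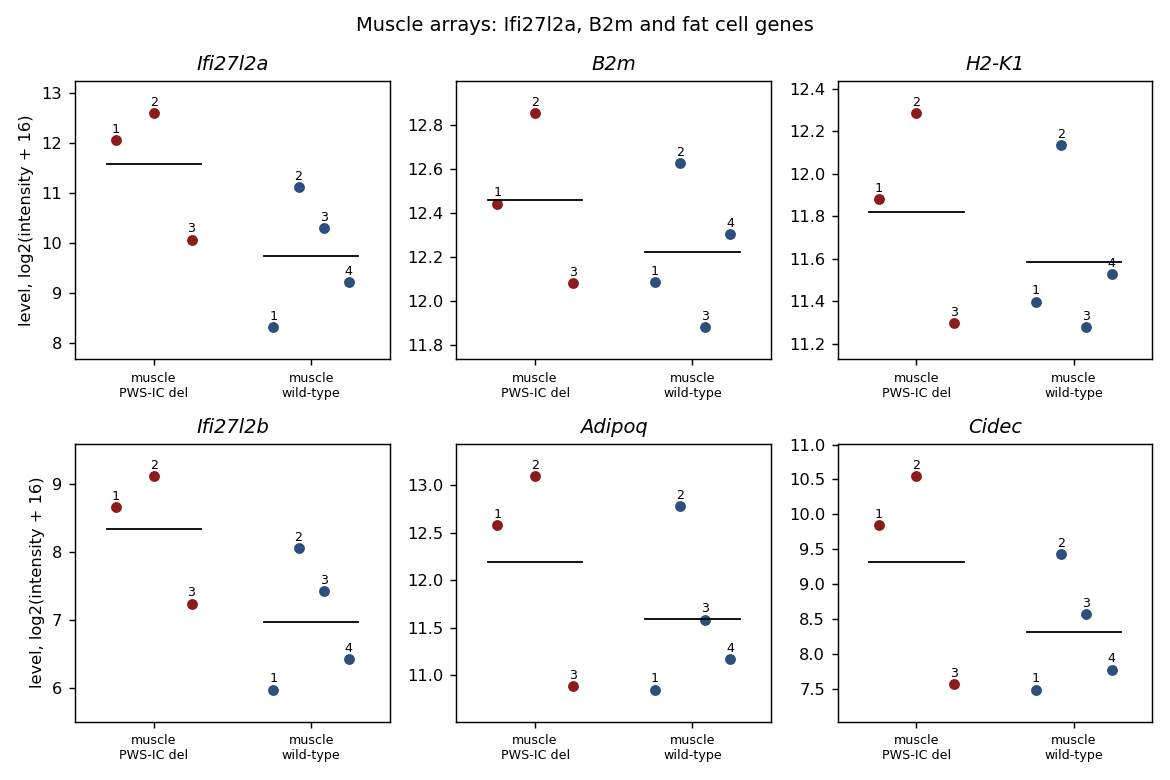
Level (vertical axis, log2(intensity + 16), own range for each gene) of Ifi27l2a, B2m, H2-K1, Ifi27l2b and the fat cell genes Adipoq and Cidec in the muscle arrays, PWS-IC del left and wild-type right, 1 point for each array with its number and a black line at the group mean. PWS-IC del arrays 1 and 2 and wild-type array 2 are the high arrays of their groups in all 6 panels.

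The rest of the pathway gave no called gene in either tissue by limma. Of 21 interferon genes themselves, 10 had a probe set, 0 passed the filter in brain and 2 in muscle, where Ifna2 and Ifna9 differed by -0.06 and -0.16, so most ligands were not measured above the filter. Of 18 receptor and signalling genes tested in each tissue, 12 were above 0 in brain and 12 in muscle, with 1 at an unadjusted p under 0.05 in brain, the receptor chain Ifnlr1 at -0.34, and 0 in muscle. Ifngr2, a chain of the interferon gamma receptor, differed by 0.29 in brain and 0.12 in muscle. Among nucleic acid sensing genes 11 of 18 were above 0 in brain and 10 of 19 in muscle, with 1 at an unadjusted p under 0.05 in brain, the DNA sensor Cgas at -0.31, and 0 in muscle.

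Among 59 other type I interferon targets, 35 were tested in brain and 44 in muscle, with medians of 0.02 and 0.05. Of these, 4 and 3 were at an unadjusted p under 0.05, against 8.2% and 11.9% of all genes tested. Casp1, the protease that matures interleukin precursors, was at 7.64, 7.72 and 7.73 in PWS-IC del brain and at 7.18, 7.31, 7.07 and 6.99 in wild-type brain, a difference of 0.56 ± 0.11 (limma, adjusted p = 0.499). Its genotypes lay apart in brain and overlapped in muscle. Epsti1, another induced gene, differed by -0.29 in brain and -0.44 in muscle, on the other side of 0. MHC class II genes, which present antigen on macrophages and dendritic cells, were above 0 for 5 of 7 in brain and 6 of 8 in muscle, with medians of 0.23 and 0.34, and the class II protease gene Ctss differed by 0.63 ± 0.15 in muscle (limma, adjusted p = 0.181). Further class I genes were above 0 for 9 of 12 in brain and 12 of 14 in muscle, with medians of 0.17 and 0.16. The constitutive proteasome, whose subunits are not interferon targets, was above 0 for 14 of 14 genes in brain with a median of 0.14, the same to 2 decimals as the median of the interferon members.

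Of the cells that answer interferon, macrophage and endothelial markers also leaned to 1 side of 0, with 0 called by limma. Astrocyte markers were above 0 for 6 of 8 in brain, with a median of 0.11. Muscle fibre markers in muscle were below 0 for 13 of 15, with a median of -0.03. At an unadjusted p under 0.05 were 4 of 22 macrophage markers tested in brain and 6 of 20 in muscle. Endothelial markers there were 5 of 12 in brain and 5 of 16 in muscle, against 8.2% and 11.9% of all genes tested. Macrophage and microglia markers were above 0 for 18 of 22 tested in brain, with a median of 0.17, and for 18 of 20 in muscle, with a median of 0.34. Their summed intensity over 23 genes was 13975 to 15187 in PWS-IC del brain and 11061 to 14768 in wild-type brain. Endothelial markers were below 0 for 12 of 12 in brain and 15 of 16 in muscle, with medians of -0.26 and -0.25, and summed over 17 genes to 5058 to 5822 in PWS-IC del brain and 5673 to 7114 in wild-type brain. In muscle that sum was 4743 to 6221 in PWS-IC del and 5946 to 7538 in wild-type arrays. Their part in the interferon gene levels was not tested. Without wild-type brain arrays 1 and 3, which carried muscle fibre transcripts, 0 members were called in brain and their median difference was 0.07.

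No member passed the test of whether its genotype difference differed between the tissues. Of 27 members tested in the interaction over 14 arrays, 0 were called by limma, against 0.0879% of all genes, and 2 were at an unadjusted p under 0.05, against 6.46% of all genes. Their median was 0.01, with 14 above 0, and that of all genes was 0.04, with 58.8% above 0. The 2 were Ifi27l2a, whose brain difference minus its muscle difference was -1.98 ± 0.86 (limma, adjusted p = 0.742), and Psmb8, at -0.41 ± 0.18 (limma, adjusted p = 0.742), the gene with discordant probe sets.

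Between tissues the interferon response genes differed far more than between genotypes. Of 27 members tested in wild-type arrays, 20 (74.1%) were called by limma, against 82.6% of all genes, so the share of calls itself was not above that of all genes. Brain and muscle arrays did not overlap for 17 of the 27, against 78.1% of all genes, and 9 of 27 differences were above 0, against 70.1% of all genes. The directions were 4 higher in brain (14.8%), against 60.2% of all genes, and 16 lower in brain (59.3%), against 22.4% of all genes. Ifi27l2a, Bst2, Parp14 and Tap1 were below the filter in brain and passed it here through their muscle levels. Their differences of -3.59, -0.65, -1.23 and -0.37 are thus partly set by the filter. The median brain minus muscle difference of the members was -0.65, whereas that of all genes was 0.54. That direction of all genes rests on the deposited scale, on which brain arrays are brighter. After quantile normalization or centring of each array on its median, the median of all genes was -0.17 or -0.13, the called genes split into 4781 higher and 6224 lower or 4797 higher and 5898 lower in place of 8215 higher and 3053 lower, and the members split into 0 higher and 23 lower under both.

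The 4 largest differences below 0 were those of Ifi27l2a, Iigp1, Gbp2 and Ifi35, of which Ifi27l2a passed the filter only through its muscle level. Ifi27l2a was at 5.67, 6.63, 6.14 and 6.18 in wild-type brain and at 8.33, 11.12, 10.30 and 9.22 in wild-type muscle, a difference of -3.59 ± 0.51 (limma, adjusted p = 7.18e-05). Iigp1 was at 7.78, 7.22, 6.86 and 6.85 in wild-type brain and at 11.24, 9.68, 9.29 and 10.29 in wild-type muscle, a difference of -2.95 ± 0.38 (limma, adjusted p = 3.61e-05). Gbp2 was at 7.35, 7.13, 7.0 and 6.77 in wild-type brain and at 10.63, 9.34, 8.71 and 9.05 in wild-type muscle, a difference of -2.36 ± 0.35 (limma, adjusted p = 9.9e-05). In all 3 genes every brain array was below every muscle array, although the muscle arrays spread over more than 1.8 log2 units.

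All 5 GTPases and 3 of the 4 antigen presentation members were called lower in brain. Igtp differed by -1.77, Gbp3 by -1.17 and Irgm1 by -1.14, and Psmb8, B2m and Psmb9 by -0.89, -0.84 and -0.67, while Tap1 at -0.37 was not called. Ifi35, an interferon-induced leucine zipper protein, had the largest difference relative to its SE among the members tested, at 7.36, 7.68, 7.41 and 7.38 in wild-type brain and at 9.83, 9.79, 9.54 and 9.33 in wild-type muscle, -2.17 ± 0.13 (limma, adjusted p = 7.8e-08). The PWS-IC del arrays, which entered no such test, gave brain minus muscle differences of means of -5.57 for Ifi27l2a, -2.63 for Iigp1, -1.98 for Gbp2 and -1.93 for Ifi35.

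The members called higher in brain were Ifit2, Ifit3, Stat2 and Irf7. Ifit2 was at 7.63, 7.96, 8.06 and 8.41 in wild-type brain and at 7.32, 6.94, 6.52 and 6.66 in wild-type muscle, a difference of 1.15 ± 0.20 (limma, adjusted p = 0.000332). Ifit3 was at 8.29, 8.63, 8.68 and 8.82 in wild-type brain and at 8.01, 8.05, 7.72 and 7.95 in wild-type muscle, a difference of 0.67 ± 0.13 (limma, adjusted p = 0.000599). Brain and muscle arrays did not overlap for either gene on the deposited scale. Stat2 was at 7.76, 7.46, 7.54 and 7.73 in wild-type brain and at 7.23, 6.81, 7.10 and 7.11 in wild-type muscle, a difference of 0.56 ± 0.11 (limma, adjusted p = 0.00101). Irf7 was at 7.27, 7.29, 7.17 and 6.97 in wild-type brain and at 6.90, 7.0, 6.56 and 6.62 in wild-type muscle, a difference of 0.41 ± 0.12 (limma, adjusted p = 0.0113). None of these 4 calls held under the other scalings. After quantile normalization Ifit2 differed by 0.41, Ifit3 by -0.18, Stat2 by -0.16 and Irf7 by -0.26, and after median centring the differences were 0.48, -0.0060, -0.12 and -0.27.

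**Figure D4:**
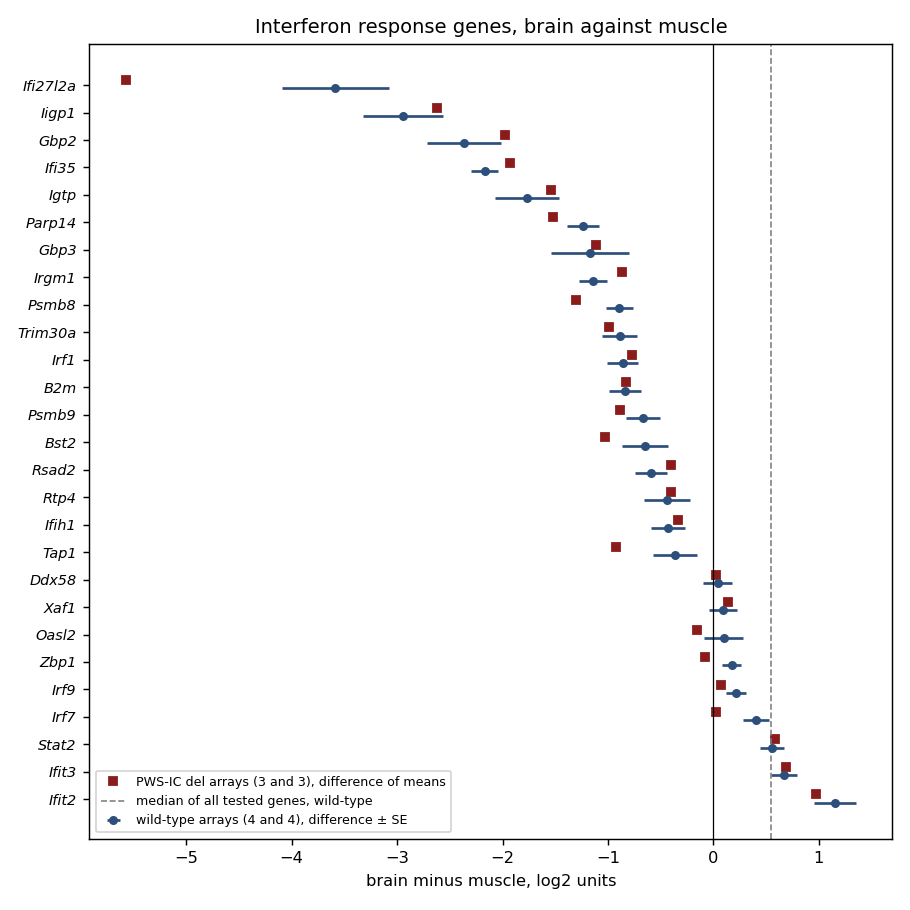
Brain minus muscle difference (log2 units, horizontal axis) for the 27 interferon response genes tested in wild-type arrays, with squares for the difference of means in PWS-IC del arrays and circles with SE bars for wild-type arrays. The dashed line is the median of all tested genes in wild-type arrays, 0.54, and 18 of the 27 wild-type circles lie below 0.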

How the data were processed

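Total RNA of 14 samples was hybridised to 1-colour Affymetrix Mouse Genome 430 2.0 arrays. The deposited values are linear intensity values, 1 per probe set and array, made by the authors with PLIER and the Affymetrix Expression Console, per the submitters' processing notes. Tool versions, background correction and any scaling of arrays to each other were not given in the sources used here. Members, lists and tests were chosen with earlier results of these data known. Groups came from the sample titles. The 64 control probe sets were left out. Platform annotation gave 1 symbol to 34945 probe sets, several to 932 and none to 9160, and 34741 matched the RefSeq gene table (GRCm38.p6) by Entrez number, with 0 symbols differing. No between-array normalization was added. Values were log2(intensity + 16), 1 probe set a gene by highest mean, with genes below the 0.25 quantile of the means of a comparison left out. limma 3.58.1 in R 4.3.3 (lmFit, eBayes) was run on each tissue alone, on the interaction over 14 arrays and on the wild-type arrays between tissues, and the fits were tested on simulated data. There, genotype changes of 0.5 log2 units were called for 15.2% of changed genes in brain and 39.6% in muscle. Changes of 1 were called for 70.8% and 85.1%, so most small changes in brain would be missed. The simulated noise was independent between genes and the changed genes were drawn at random. These rates are therefore not those of members with a wide spread, such as the GTPases. Values of every array are given for members past the threshold between genotypes or in the interaction, for the 6 tested members with the largest absolute difference in each tissue, and for the 4 largest differences each way among members past the threshold between wild-type tissues; from other lists, genes past the threshold and up to 4 with the smallest p in each tissue are named, besides imprinted check genes. Outside this rule, and chosen after their values were seen, are the array values of Irf1, Gbp7, Irgm2, H2-K1, Adipoq and Cidec, and the single differences of the other members. Alternatives covered the pseudocount, scaling, filters, probe sets, intensity trend, array weights, replicate block, threshold, joint fit and left-out arrays.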

Additional observations from a re-analysis of the deposited data

Results flagged for a closer look

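In 3 of 62 groups of 4 wild-type arrays tested for a lone far array, 1 array stood far from the other 3, and chance alone gives about 1 in 20 such groups. Irf1 in wild-type brain was at 8.28 in array 1 and at 8.07 in each of the other 3. Ifi35 in wild-type brain was at 7.68 in array 2, with the others at 7.36 to 7.41. Parp14 in wild-type brain, a gene below the filter there, was at 6.41 in array 4, with the others at 6.65 to 6.67.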

How the results depend on the processing

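No member was called between genotypes in brain, or in the interaction, under any alternative run. In muscle only array quality weights gave calls, for 5 of 30 members, all higher. With those weights 1862 of 13645 genes were called, 1074 higher and 788 lower, a share close to that of the members. The 5 members included Ifi27l2a at 2.66, Psmb9 at 0.78 and Irf9 at 0.33. Of 380 alternative values of 20 named differences of members, some members having more than 1, 364 kept direction and side of the threshold, 11 reversed, 3 became calls and 2 lost theirs. The cause of each change below was not tested, except where fewer arrays, genes or a looser threshold make it.

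Genes called in brain were 24 with all probe sets tested singly, 3 with the replicate block, 5 without wild-type arrays 1 and 3, and 6 to 7 with each array left out. In muscle they were 29 at pseudocount 64 or with filter quantile 0.5, 42 after quantile normalization, 25 after median centring, 8 with no filter, 48 with all probe sets, 59 with an intensity trend, 2 with the replicate block, 84 at threshold 0.1, 39 in the joint fit, and 6 to 26 with each array left out (26 without wild-type array 2, 6 to 8 without wild-type arrays 1, 3 or 4 or PWS-IC del array 2). In the interaction they were 6 with filter quantile 0.5 or the replicate block, 26 with all probe sets, 98 with weights, 19 at threshold 0.1, and 6 to 14 with each array left out (6 to 7 without brain wild-type array 1, brain PWS-IC del array 1, muscle wild-type array 1 or muscle PWS-IC del array 2). Same-numbered arrays of the 2 genotypes correlated in their deviations at -0.51 to -0.05 in brain and -0.05 to 0.47 in muscle, so the numbers were not taken to pair samples.

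The members' median in brain was 0.24 with filter quantile 0.5, -0.021 with weights and 0.037 to 0.18 with each array left out; in muscle that last range was 0.021 to 0.20. Their interaction median was -0.20 with weights and -0.12 to 0.039 with each array left out. Between tissues the median was -0.48 at pseudocount 64, -1.27 after quantile normalization, -1.33 after centring and -1.02 with filter quantile 0.5, which left 9 members called; all probe sets gave 25801 calls. Reversed values were 0.054 for Psmb8 in brain with probe sets averaged, -0.042 and -0.064 for Igtp and Iigp1 in brain with weights, -0.047 and -0.19 for the same without PWS-IC del array 3 (up to 0.65 and 0.51 with another array left out), and between tissues Ifit3 (-0.18, -0.0060), Stat2 (-0.16, -0.12) and Irf7 (-0.26, -0.27) after quantile normalization and centring.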

Other observations

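The labels do not say that brain and muscle arrays of the same number came from 1 mouse. Over whole arrays, deviations of same-numbered wild-type brain and muscle arrays correlated at -0.015 to 0.014, against -0.067 to 0.082 for other numbers. In PWS-IC del these ranges were 0.054 to 0.14 and -0.13 to 0.11. Deviations of the 31 measured members from their group means were correlated between tissues over the 7 numbers, a relation looked at after the array values were seen, with exact permutation of numbers within genotype (two-sided, smallest possible p = 0.00694). Pearson's r was above 0 for 25 members and below 0 for 6, and 6 members, all above 0, were at an unadjusted exact p under 0.05, namely Gbp3, Ifit1, Rsad2, Gbp2, Ifi27l2a and Stat2. Over 13645 genes the median r was 0.093, so r leaned above 0 for all genes too. Of these genes, 58.1% had r at or above -0.019 and 54.7% at or above 0.027. The members Ifit1, Mx1, Mx2 and Usp18 were outside the 13645, so the counts of members and of all genes do not cover the same set. Of the 13645, 593 were at an unadjusted p under 0.05 and 0 passed after adjustment, with a lowest adjusted p of 0.993. With only 144 permutations, the smallest possible p could hardly pass an adjustment over so many genes. That 0 therefore decides nothing about a relation between the tissues. At the upper end of the range, Gbp3 had r = 0.94 (exact permutation p = 0.00694) and rho = 0.93 (exact permutation p = 0.0139). At the lower end, Mx2 had r = -0.91 (exact permutation p = 0.125) and rho = -0.89 (exact permutation p = 0.0972). Mx2 was below the filter on low values in every comparison. Without the 2 numbers farthest from the median in brain, r was 0.89 for Gbp3 and -0.57 for Mx2. The 5 GTPases did not share 1 value, with r of 0.94 for Gbp3, 0.87 for Gbp2, 0.76 for Iigp1, 0.72 for Igtp and 0.22 for Irgm1, and without those numbers r was 0.12 for Iigp1 and 0.00073 for Igtp.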
